A study of Homo sapiens with 12 samples.

Results

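The CXC chemokine cluster with IL8 was taken as the 6 rows of the deposited gene table with the symbols IL8, CXCL1, CXCL2, CXCL3, CXCL5 and CXCL6, of 57773 rows in all. Levels were read in 12 libraries of polyA RNA from U87, an established human glioblastoma cell line. The libraries form 6 groups of 2: JQ1-resistant U87 cells given dBET6 at 1000 nM, JQ1 at 1000 nM or DMSO, and parental U87 cells given dBET6 at 1000 nM, JQ1 at 1000 nM or DMSO, each for 24 h. JQ1 is a small molecule that occupies the acetyl-lysine pocket of the BET bromodomain proteins, and dBET6 joins a JQ1-type ligand to a ligand of cereblon so that the same proteins are degraded. How the resistant cells were selected, whether they are 1 clone, and whether they were kept in JQ1 until the treatment, is not stated in the sources used here. The label of a glial tumour line was read against marker genes in deposited FPKM (fragments per kilobase of transcript). How these values were scaled between libraries is not described. VIM stood at 2908 to 11067 FPKM and CD44 at 242 to 628 FPKM over the groups. The glial markers GFAP, S100B, OLIG2 and SOX2 were low. GFAP stood at 1.58 to 6.39 FPKM, and SOX2 at or near 0 outside the dBET6 groups.

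These genes encode small secreted proteins that attract neutrophils and promote the growth of blood vessels. IL8 (now CXCL8) binds the receptors CXCR1 and CXCR2, CXCL6 binds both as well, and CXCL1, CXCL2, CXCL3 and CXCL5 act mainly through CXCR2. The genes are classic targets of the transcription factor NF-kB, switched on by interleukin 1 and TNF, and IL8 also answers to AP-1, the dimer of FOS and JUN family proteins. In glioblastoma IL8 is known as a product of the tumour cells themselves. The RefSeq gene order on chromosome 4 runs IL8, CXCL6, PF4V1, CXCL1, PF4, PPBP, CXCL5, CXCL3, CXCL2, so that all 6 members and the 3 other CXC genes are neighbours.

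The promoters are shown because all members share one NF-kB site while IL8 alone also has the AP-1 motif. The 150 bases before the start of 5 of the genes are printed 5′ to 3′ from RefSeq (GRCh38.p14), with the motifs that were searched in capitals. They lie at chr4:73740419-73740568 (plus strand) for IL8, chr4:73869243-73869392 (plus strand) for CXCL1, chr4:74099196-74099345 (minus strand) for CXCL2, chr4:74038690-74038839 (minus strand) for CXCL3 and chr4:73998678-73998827 (minus strand) for CXCL5.
IL8: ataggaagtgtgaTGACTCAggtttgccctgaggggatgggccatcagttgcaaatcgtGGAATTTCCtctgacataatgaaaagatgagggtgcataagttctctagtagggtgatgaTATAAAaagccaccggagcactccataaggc
CXCL1: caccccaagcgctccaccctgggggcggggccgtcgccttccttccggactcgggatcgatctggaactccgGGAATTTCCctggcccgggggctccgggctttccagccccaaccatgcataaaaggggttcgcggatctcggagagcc
CXCL2: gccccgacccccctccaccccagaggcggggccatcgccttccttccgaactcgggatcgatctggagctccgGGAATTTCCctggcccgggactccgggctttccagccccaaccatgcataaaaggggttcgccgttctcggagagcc
CXCL3: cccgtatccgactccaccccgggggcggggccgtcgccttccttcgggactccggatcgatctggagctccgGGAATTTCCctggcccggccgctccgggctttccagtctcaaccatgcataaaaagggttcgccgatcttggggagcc
CXCL5: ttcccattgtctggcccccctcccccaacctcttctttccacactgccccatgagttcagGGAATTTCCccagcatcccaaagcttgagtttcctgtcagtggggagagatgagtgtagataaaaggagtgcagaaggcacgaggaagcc
The capitals GGAATTTCC mark the core of the kappaB site. In IL8, TGACTCA is a match to the AP-1 motif TGANTCA and TATAAA is a match to the TATA box letters searched.

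All 6 members were matched in the RefSeq promoter table, and both strands of their 300 bases, from 250 before to 50 after the start, were searched. The kappaB core, whose letters were chosen after the sequences were seen, was found in all 6 on the plus strand of the gene, beginning at base -91 in IL8, -78 in CXCL1, -77 in CXCL2, -78 in CXCL3, -90 in CXCL5 and -89 in CXCL6. It was found in 162 of 35116 promoters of the same length, or 0.461%. The longer NF-kB consensus was matched by every member except IL8, on both strands at the same place and overlapping the core, and by 5.91% of promoters. TGANTCA was found in IL8, at bases -137 to -131, and in none of the other 5 members, against 7.71% of all promoters. TATAAA was found in IL8, at bases -31 to -26, and in none of the other 5, against 11.5% of all promoters. Only these exact letters were searched, so the other 5 are not shown to lack a TATA box. Over the 300 bases CXCL1, CXCL2 and CXCL3 were alike, CXCL5 and CXCL6 were alike, and IL8 stood apart. In a global alignment CXCL1 and CXCL3 had 82.5% identical bases, CXCL2 and CXCL3 73.7%, CXCL1 and CXCL2 69.8%, and CXCL5 and CXCL6 83.1%. IL8 shared 43.0% to 44.7% of bases with the other 5. These matches describe the windows and say nothing of which proteins were bound in U87 cells.

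The libraries held 24732177 to 40388589 estimated counts, and the 2 libraries of a group correlated at r = 0.982 to 0.994 over genes on the log2 scale. The dBET6 libraries stood apart from the others. The 13 mitochondrially encoded mRNAs made up 3.19% to 3.94% of the dBET6 libraries and 1.46% to 2.70% of the JQ1 and DMSO libraries. A larger part of a dBET6 library also came from its top 50 genes, 25.8% to 31.0%, where the JQ1 and DMSO libraries had 12.4% to 18.5%. Scaling therefore matters for every dBET6 value. With library totals in place of TMM scaling (trimmed mean of M-values), the median log2 change of all tested genes with dBET6 against DMSO was -1.14 in resistant and -0.65 in parental cells, and with mitochondrial mRNAs as the yardstick it was -2.12 and -1.78. In resistant cells 22.5% of the dBET6 calls were higher under totals and 8.94% under mitochondrial scaling, against 47.5% under TMM. In parental cells these shares were 30.6% and 11.4%, against 48.5% under TMM. For JQ1 the medians were -0.17 in resistant and -0.10 in parental cells under totals, and -0.56 and -0.28 under mitochondrial scaling. The share of JQ1 calls that were higher was 28.3% in resistant and 36.5% in parental cells under totals, and 6.67% and 21.5% under mitochondrial scaling, against 47.4% and 46.7% under TMM. Levels below are deposited FPKM, which are per length and can be compared between genes. Changes are log2 fold changes ± SE of edgeR's quasi-likelihood test on summed estimated counts, and a gene is called at an adjusted p under 0.05 over 19093 genes.

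IL8 had the widest range of the members and the highest level in 4 of the 6 groups. It stood at 12.7 and 12.1 FPKM in resistant cells with dBET6, 0.622 and 0.630 FPKM with JQ1, and 1.82 and 1.30 FPKM with DMSO. In parental cells it stood at 98.0 and 121.6 FPKM with dBET6, 4.12 and 3.15 FPKM with JQ1, and 19.5 and 22.8 FPKM with DMSO. In FPKM no 2 groups overlapped. The order from high to low was parental dBET6, parental DMSO, resistant dBET6, parental JQ1, resistant DMSO and resistant JQ1. In TPM, resistant dBET6 (5.52 and 5.27 TPM) overlapped parental JQ1 (5.44 and 4.02 TPM). In bulk RNA, fewer cells that make a transcript and less transcript in each cell cannot be told apart. The longest IL8 transcript took 84.2% to 100% of the gene's counts in every library.

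The other members stood below IL8 in parental cells and in resistant cells with dBET6. In resistant cells CXCL2 and CXCL3 stood above IL8 with DMSO, and CXCL2 overlapped it with JQ1. CXCL2 stood at 1.14 and 1.24 FPKM in resistant cells with dBET6, 0.417 and 0.996 FPKM with JQ1, and 2.93 and 3.02 FPKM with DMSO. In parental cells CXCL2 stood at 1.17 and 2.61 FPKM with dBET6, 2.32 and 1.10 FPKM with JQ1, and 4.01 and 5.40 FPKM with DMSO. Both DMSO groups were above every treated library, and the parental dBET6 and JQ1 groups overlapped. CXCL3 stood at 1.51 and 1.06 FPKM in resistant cells with dBET6, 0.424 and 0.610 FPKM with JQ1, and 2.17 and 2.97 FPKM with DMSO. In parental cells CXCL3 stood at 1.24 and 1.70 FPKM with dBET6, 0.655 and 0.639 FPKM with JQ1, and 1.16 and 1.74 FPKM with DMSO. In FPKM the JQ1 libraries of both lines were the lowest for CXCL3, resistant DMSO was the highest, and the other groups overlapped. In TPM the JQ1 libraries were not the lowest, as resistant dBET6 (0.660 and 0.460 TPM) overlapped resistant JQ1 (0.559 and 0.751 TPM).

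CXCL5 stood at 1.58 and 1.75 FPKM in resistant cells with dBET6, 0.0732 and 0.0747 FPKM with JQ1, and 0.646 and 0.979 FPKM with DMSO. In parental cells it stood at 0.369 and 0.599 FPKM with dBET6, 0.0589 and 0.0433 FPKM with JQ1, and 0.156 and 0.266 FPKM with DMSO. In FPKM the 6 groups did not overlap, and CXCL5 was the one tested member whose resistant libraries lay above the parental libraries under each treatment. In TPM the order within a line differed. Resistant dBET6 (0.692 and 0.762 TPM) lay below resistant DMSO (0.995 and 1.47 TPM), and parental dBET6 (0.212 and 0.350 TPM) overlapped parental DMSO (0.232 and 0.387 TPM). Its JQ1 values rest on 6 and 6 counts in resistant and 5 and 3 counts in parental cells. CXCL6 had 1 count in all 12 libraries, in parental dBET6 replicate 2.

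**Figure D1:**
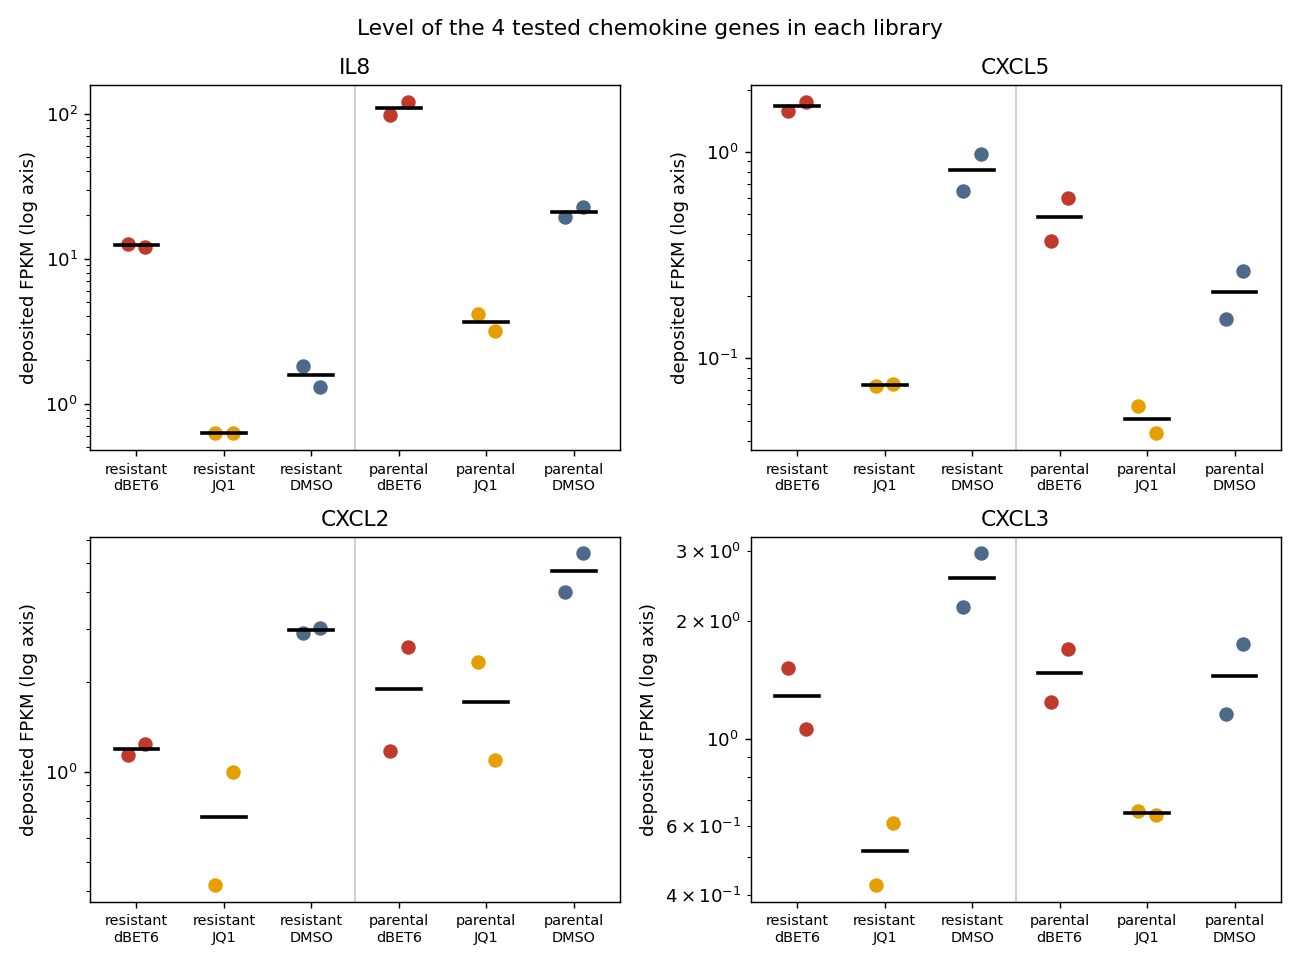
Deposited FPKM of IL8, CXCL5, CXCL2 and CXCL3 on log axes, with a point for each library and a line at the mean of the 2 libraries of each group. IL8 is highest in parental cells with dBET6 (98.0 and 121.6 FPKM), and CXCL5 is highest in resistant cells with dBET6 (1.58 and 1.75 FPKM). In TPM, CXCL5 is instead highest in resistant cells with DMSO (0.995 and 1.47 TPM).

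The make-up of the cluster's transcripts followed these levels. IL8 took 74.9% and 74.9% of the summed FPKM of the 6 members in resistant cells with dBET6, 40.5% and 27.3% with JQ1, and 24.1% and 15.8% with DMSO. In parental cells it took 96.8% and 95.9% with dBET6, 55.9% and 61.9% with JQ1, and 78.3% and 75.0% with DMSO. Resistant cells with DMSO were the group with the smallest IL8 share, and there CXCL2 and CXCL3, whose libraries overlapped, both stood above IL8. The largest share was that of parental cells with dBET6.

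With JQ1 every tested member fell in both lines. IL8 fell by 1.42 ± 0.24 in resistant cells (adjusted p = 3.05e-05, edgeR) and by 2.61 ± 0.14 in parental cells (adjusted p = 7.88e-14, edgeR), or 2.68-fold and 6.12-fold. CXCL5 fell by 3.39 ± 0.41 in resistant cells (adjusted p = 1.11e-07, edgeR) and by 1.95 ± 0.53 in parental cells (adjusted p = 0.00313, edgeR). CXCL3 fell by 2.33 ± 0.31 in resistant cells (adjusted p = 5.74e-07, edgeR) and by 1.08 ± 0.32 in parental cells (adjusted p = 0.00573, edgeR). CXCL2 fell by 2.02 ± 0.33 in resistant cells (adjusted p = 1.06e-05, edgeR) and by 1.52 ± 0.27 in parental cells (adjusted p = 3.43e-05, edgeR). Lower calls were thus 4 of 4 tested members in each line. Of all tested genes, 23.1% were called lower and 20.8% higher in resistant cells, and 26.1% lower and 22.8% higher in parental cells. Without parental DMSO replicate 2 the parental calls of CXCL3 (-0.74, adjusted p = 0.127, edgeR) and CXCL5 (-1.56, adjusted p = 0.0535, edgeR) were lost, which left 2 of 4, and every resistant call held with any 1 library left out. DESeq2 gave the parental CXCL3 change an adjusted p of 0.0556.

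With dBET6 the members parted. IL8 rose by 2.87 ± 0.17 in resistant cells (adjusted p = 2.81e-14, edgeR) and by 2.51 ± 0.12 in parental cells (adjusted p = 5.28e-16, edgeR), or 7.32-fold and 5.69-fold. CXCL5 rose by 0.97 ± 0.30 in resistant cells (adjusted p = 0.00488, edgeR) and by 1.21 ± 0.39 in parental cells (adjusted p = 0.00745, edgeR) under TMM scaling, a sign that turns under mitochondrial scaling. CXCL2 fell by 1.31 ± 0.36 in resistant cells (adjusted p = 0.00217, edgeR) and by 1.42 ± 0.29 in parental cells (adjusted p = 9.67e-05, edgeR). CXCL3 fell by 1.32 ± 0.33 in resistant cells (adjusted p = 0.000725, edgeR). In parental cells the CXCL3 difference was 0.02 ± 0.31, with a 95% interval of -0.62 to 0.66 (adjusted p = 0.963, edgeR). The calls were 2 higher and 2 lower in resistant and 2 higher and 1 lower in parental cells. Of all tested genes, 35.7% were higher and 39.5% lower in resistant cells, and 37.0% higher and 39.3% lower in parental cells, so the number of members called was near that of genes at large.

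The rise of IL8 with dBET6 was present under every scaling, and that of CXCL5 was not. IL8 changed by 1.80 in resistant and 1.88 in parental cells when scaled by library totals, and by 0.80 and 0.75 when scaled by mitochondrial mRNA, each time above the median of all genes. CXCL5 changed by -0.10 in resistant and 0.58 in parental cells with library totals, and by -1.07 and -0.55 with mitochondrial mRNA. Its sign thus turned in resistant cells under both scalings, and in parental cells with mitochondrial mRNA only. It stayed above the median gene under each of these scalings. CXCL2 fell under all of these scalings in both lines, as did CXCL3 in resistant cells. CXCL3 in parental cells stayed close to the median gene, at -0.62 with totals and -1.75 with mitochondrial mRNA. The CXCL5 calls also rested on single libraries: the parental value was 0.83 without parental DMSO replicate 1 (adjusted p = 0.107, edgeR) and 0.79 without parental dBET6 replicate 2 (adjusted p = 0.166, edgeR). The resistant CXCL5 value was 0.65 without resistant DMSO replicate 1 (adjusted p = 0.122, edgeR) and 0.84 without resistant dBET6 replicate 2 (adjusted p = 0.0548, edgeR).

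**Figure D2:**
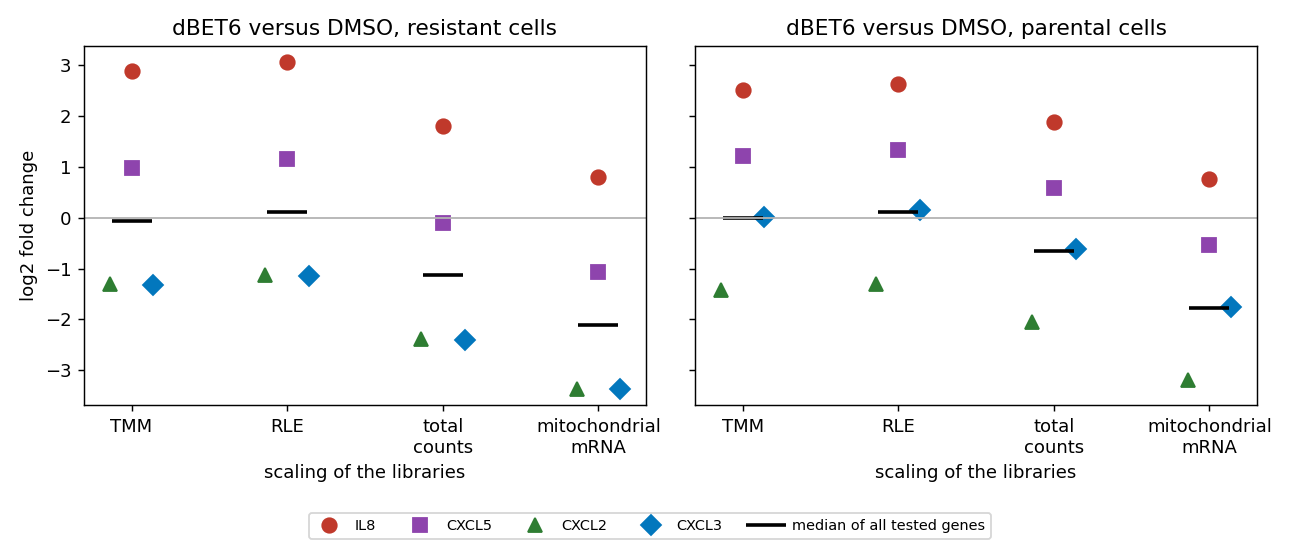
Log2 fold change of the 4 tested members for dBET6 against DMSO under 4 scalings of the libraries, in resistant and parental cells, with a black bar at the median of all tested genes. IL8 stays above 0 throughout (0.75 at the lowest), CXCL5 crosses 0, and in parental cells CXCL3 lies at the median.

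Set against JQ1 at the same dose and time, dBET6 left far more IL8 and CXCL5 transcript. IL8 was higher with dBET6 by 4.29 ± 0.20 in resistant cells (adjusted p = 5.57e-16, edgeR) and by 5.12 ± 0.14 in parental cells (adjusted p = 4.74e-20, edgeR), or 19.6-fold and 34.8-fold. CXCL5 was higher by 4.36 ± 0.41 in resistant cells (adjusted p = 2.09e-10, edgeR) and by 3.16 ± 0.51 in parental cells (adjusted p = 3.2e-06, edgeR). Both differences kept their sign under library totals and mitochondrial scaling, where the smallest were 2.81 for IL8 in resistant cells and 1.76 for CXCL5 in parental cells. CXCL3 was higher by 1.00 ± 0.40 in resistant cells (adjusted p = 0.0269, edgeR) and by 1.10 ± 0.35 in parental cells (adjusted p = 0.00598, edgeR), but stood at -0.47 and -0.34 with mitochondrial scaling. With library totals CXCL3 differed by 0.12 in resistant cells (adjusted p = 0.79, edgeR) and 0.58 in parental cells (adjusted p = 0.133, edgeR), which left 2 calls higher in each line. The resistant CXCL3 call was lost without resistant dBET6 replicate 1 (0.94) or replicate 2 (0.98), or resistant JQ1 replicate 1 (0.93) or replicate 2 (1.02), and the parental one without parental dBET6 replicate 2 (0.85). For CXCL2 no difference between the compounds passed the threshold, at 0.71 in resistant cells (95% interval -0.21 to 1.63, adjusted p = 0.152, edgeR) and 0.09 in parental cells (95% interval -0.58 to 0.76, adjusted p = 0.808, edgeR), and with library totals it stood at -0.16 and -0.42. The calls were 3 higher in each line, while 35.4% of genes were higher and 38.8% lower in resistant cells, and 36.2% higher and 38.4% lower in parental cells. Of all calls between the compounds 47.8% were higher in resistant and 48.6% in parental cells, shares that were 26.2% and 32.9% with library totals and 14.3% and 13.1% with mitochondrial scaling. The 2 compounds were compared for 4 members in 2 lines, 8 comparisons in all, with p adjusted over all genes. The values against DMSO and those between compounds share libraries.

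**Figure D3:**
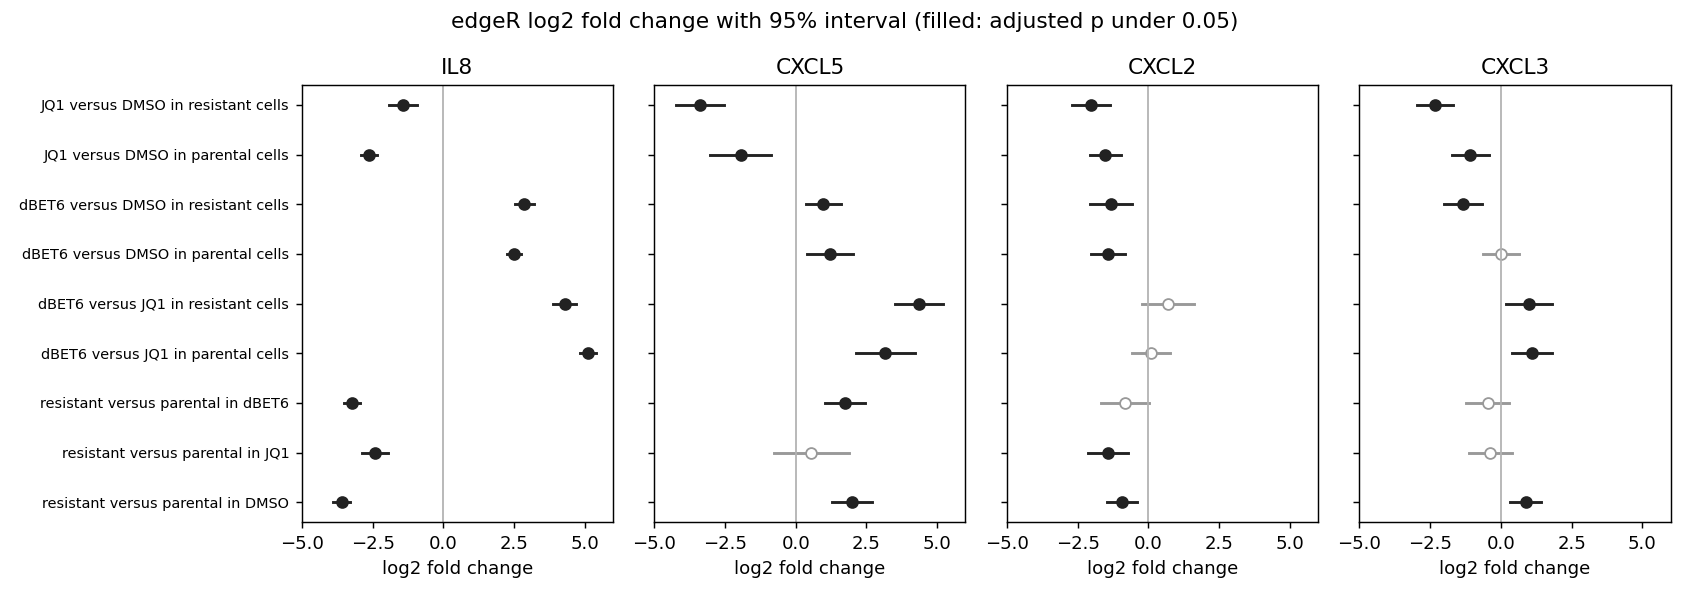
Log2 fold change with its 95% interval for IL8, CXCL5, CXCL2 and CXCL3 in 9 comparisons, filled where the adjusted p is under 0.05. Against DMSO, JQ1 values lie below 0 for all 4 genes, and dBET6 values lie above 0 for IL8 and CXCL5 and below it for CXCL2. The line difference is negative for IL8 and positive for CXCL5 in DMSO. Values are under TMM scaling, and those of CXCL5 with dBET6 against DMSO turn negative under mitochondrial scaling.

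Between the lines, IL8 was lower and CXCL5 higher in resistant cells. IL8 was lower in resistant than in parental cells by -3.23 ± 0.13 with dBET6 (adjusted p = 4.71e-16, edgeR), -2.40 ± 0.22 with JQ1 (adjusted p = 3.54e-09, edgeR) and -3.59 ± 0.15 with DMSO (adjusted p = 8.71e-16, edgeR). The DMSO difference is 12.1-fold. CXCL5 was higher in resistant cells by 1.75 ± 0.34 with dBET6 (adjusted p = 0.000134, edgeR) and 1.99 ± 0.34 with DMSO (adjusted p = 3.05e-05, edgeR), and differed by 0.55 ± 0.65 with JQ1 (adjusted p = 0.554, edgeR). The IL8 and CXCL5 line calls in DMSO held under each scaling and with any 1 library left out.

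CXCL2 was lower in resistant cells by -1.43 ± 0.35 with JQ1 (adjusted p = 0.00175, edgeR) and -0.93 ± 0.25 with DMSO (adjusted p = 0.00448, edgeR), and differed by -0.82 ± 0.41 with dBET6 (adjusted p = 0.111, edgeR). CXCL3 was higher in resistant cells by 0.88 ± 0.27 with DMSO (adjusted p = 0.0099, edgeR), and differed by -0.46 ± 0.37 with dBET6 (adjusted p = 0.342, edgeR) and -0.37 ± 0.37 with JQ1 (adjusted p = 0.474, edgeR). These smaller differences rested on single libraries. The CXCL3 call was lost without parental DMSO replicate 1 (0.59) or resistant DMSO replicate 2 (0.71), and the CXCL2 call in DMSO without parental DMSO replicate 2 (-0.79). The CXCL2 call in JQ1 was lost without parental JQ1 replicate 1 (-1.01) or resistant JQ1 replicate 1 (-1.10), which left 1 of the 2 calls in that comparison. DESeq2 called neither CXCL2 (adjusted p = 0.0695) nor CXCL3 (adjusted p = 0.114) in DMSO, and with mitochondrial scaling edgeR called all 4 members in dBET6. Under the same scaling the CXCL3 call in DMSO was lost (0.61, adjusted p = 0.158, edgeR), leaving 3 of the 4. Resistant cells had 1 member higher and 1 lower with dBET6, 2 lower with JQ1, and 2 higher and 2 lower with DMSO. Of all genes, 19.7% were higher and 24.3% lower with dBET6, 16.8% higher and 19.0% lower with JQ1, and 17.4% higher and 21.2% lower with DMSO. The share of these calls that were higher was 44.7% with dBET6, 46.9% with JQ1 and 45.1% with DMSO, against 19.3%, 45.7% and 53.5% under library totals and 10.4%, 6.70% and 19.4% under mitochondrial scaling.

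CXCL1 was detected in one line. It had 0 counts in the 6 resistant libraries and 22 counts in the 6 parental libraries. Parental FPKM were 0.449 and 0.190 with dBET6, 0.209 and 0.160 with JQ1, and 0.0868 and 0.231 with DMSO, and these 3 groups overlapped. The gene was too low for the test across genes, as was CXCL6, so 4 of 6 members were tested. Against a floor of 3 counts over the 6 resistant libraries, CXCL1 was at least 7.44-fold lower in resistant cells, whose limit was 0.0153 CPM (counts scaled to library total) against 0.114 CPM in parental cells. An exact two-sided permutation test of the line labels within each treatment gave p = 0.00926, the smallest its 216 permutations can give, and was chosen after the values were seen. CXCL1, CXCL2 and CXCL3 are close paralogs, between which reads can be divided. Here the estimated counts of each summed over its transcripts to whole numbers, within 0.01, in each library with counts, 6 of 6 for CXCL1 and 12 of 12 for CXCL2 and CXCL3. With the 3 paralogs summed into 1 row, JQ1 changed the sum by -2.19 in resistant cells (adjusted p = 2.62e-08, edgeR) and -1.35 in parental cells (adjusted p = 8.24e-06, edgeR). The dBET6 values of the sum were -1.32 in resistant cells (adjusted p = 5.27e-05, edgeR) and -0.79 in parental cells (adjusted p = 0.00248, edgeR). Between resistant and parental cells the sum differed by -0.76 with dBET6 (adjusted p = 0.0339, edgeR), -1.06 with JQ1 (adjusted p = 0.00216, edgeR) and -0.23 with DMSO (adjusted p = 0.383, edgeR), where CXCL2 and CXCL3 singly had been called in opposite directions.

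PPBP, the gene of the platelet chemokine CXCL7, lies between PF4 and CXCL5 in this cluster and showed the opposite line difference to CXCL1. It had 29 and 32 counts in resistant cells with dBET6, 8 and 6 with JQ1, and 51 and 51 with DMSO. Parental cells had 1 and 0 counts with dBET6, 0 and 2 with JQ1, and 0 and 0 with DMSO. Against a floor of 3 counts over the parental DMSO group, PPBP was at least 32.7-fold higher in resistant cells with DMSO. The ratio was 62.6 with dBET6 (95% counting interval 10.8 to 2513.7) and 6.87 with JQ1 (1.58 to 62.3). Within resistant cells PPBP fell by 2.56 ± 0.47 with JQ1 (adjusted p = 6.36e-05, edgeR) and differed by 0.83 ± 0.38 with dBET6 (adjusted p = 0.0519, edgeR), and the direction with dBET6 depended on the scaling. The dBET6 value was 1.01 with RLE size factors (adjusted p = 0.0188, edgeR), -0.24 with library totals (adjusted p = 0.578, edgeR) and -1.22 with mitochondrial mRNA (adjusted p = 0.00579, edgeR). PF4 was at 0 in 5 of the 6 groups and PF4V1 in all 6.

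**Figure D4:**
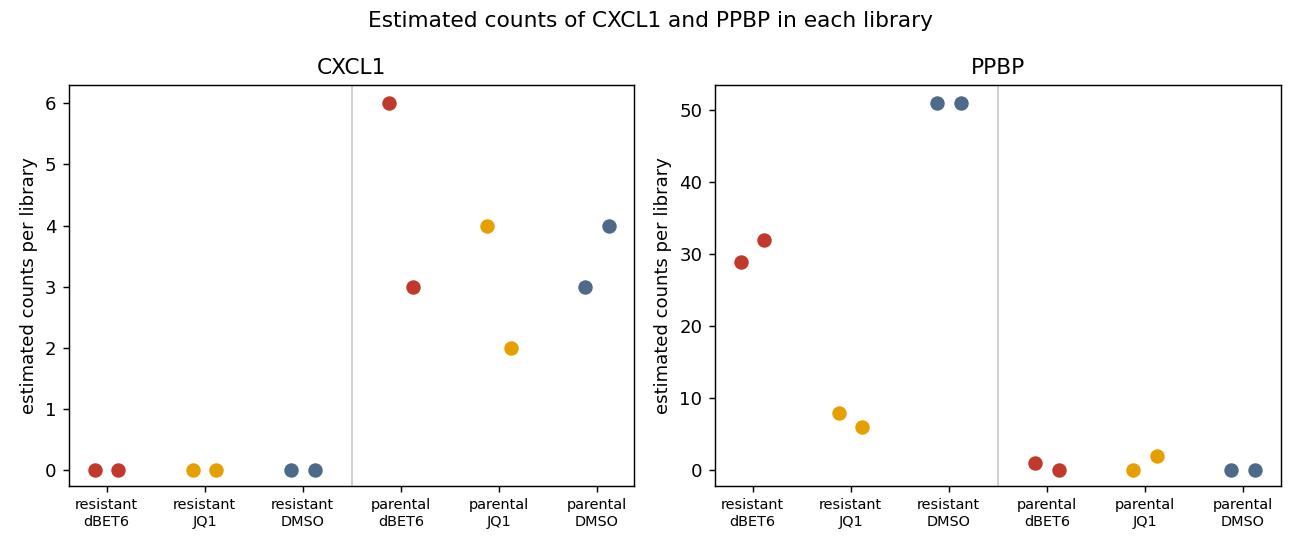
Estimated counts of CXCL1 and PPBP in each library, with resistant groups left of the parental groups. CXCL1 has 0 counts in every resistant library, and PPBP has 51 counts in each resistant DMSO library and at most 2 in any parental library.

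Whether the compounds acted differently in the 2 lines was tested directly. For JQ1, IL8 was the one member called: its response was less negative in resistant cells, by 1.19 ± 0.30 (adjusted p = 0.0177, edgeR). The call was lost without resistant DMSO replicate 2 (0.98, adjusted p = 0.0767, edgeR) or resistant JQ1 replicate 1 (0.93, adjusted p = 0.235, edgeR), which left 0 members called, and with library totals (1.12, adjusted p = 0.0574, edgeR). The differences of CXCL2 (-0.50, 95% interval -1.39 to 0.38), CXCL3 (-1.25, -2.18 to -0.31) and CXCL5 (-1.44, -3.03 to 0.15) had adjusted p of 0.568, 0.105 and 0.306 in edgeR. Of all genes 3.62% were called higher and 2.88% lower in this test. For dBET6, CXCL3 was called, with a response more negative in resistant cells by -1.34 ± 0.46 (adjusted p = 0.0287, edgeR), where 14.2% of genes were called lower and 13.7% higher. That call was lost without any of 5 libraries, parental DMSO replicate 1 (-1.05), parental dBET6 replicate 2 (-1.13), resistant dBET6 replicate 1 (-1.35) or 2 (-1.31), or resistant DMSO replicate 2 (-1.17), which left 0 called, and in DESeq2 (adjusted p = 0.142). The dBET6 response of IL8 differed by 0.36, with a 95% interval of -0.05 to 0.78 (adjusted p = 0.194, edgeR). Without resistant DMSO replicate 1 it passed the threshold at 0.67 (adjusted p = 0.0492, edgeR), which made 2 members called. CXCL2 and CXCL5 differed by 0.12 and -0.24 (adjusted p = 0.904 and 0.772, edgeR).

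Most genes of the list of inducers, their receptors and related signalling genes were lower with JQ1. Of 16 tested genes among 18 listed, 14 fell and 1 rose with JQ1 in resistant cells and 13 fell in parental cells, where 23.1% and 26.1% of all genes fell. The lower counts were the same under library totals and mitochondrial scaling. The list medians were -0.92 in resistant and -1.06 in parental cells, against 0.0088 and 0.0058 for all tested genes. IL1B, the cytokine interleukin 1 beta, stood at 2.07 and 1.78 FPKM in resistant cells with JQ1 and 110.0 and 111.0 FPKM with DMSO, and at 0.461 and 0.477 FPKM in parental cells with JQ1 and 21.7 and 20.6 FPKM with DMSO. It fell by 5.90 ± 0.12 in resistant cells (adjusted p = 8.05e-23, edgeR) and by 5.74 ± 0.16 in parental cells (adjusted p = 1.51e-20, edgeR). With dBET6, IL1B stood at 2.69 and 2.96 FPKM in resistant and 3.27 and 2.34 FPKM in parental cells, and fell by 5.78 ± 0.14 (adjusted p = 4.94e-23, edgeR) and 3.57 ± 0.14 (adjusted p = 1.78e-18, edgeR). LIF, a cytokine of the interleukin 6 family, fell by 2.60 and 2.30 with dBET6 and by 1.15 and 3.02 with JQ1 in resistant and parental cells. IL1B and IL8 thus moved apart with dBET6, whereas both fell with JQ1. Of the list, 8 fell and 5 rose with dBET6 in resistant cells and 11 fell and 3 rose in parental cells. Of all genes, 39.5% fell and 35.7% rose with dBET6 in resistant cells, and 39.3% fell and 37.0% rose in parental cells. With library totals, under which most of all calls were lower, the list had 13 lower and 1 higher, and 14 lower and 1 higher.

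Most NF-kB subunits and activating kinases were lower with dBET6. With dBET6, 6 of 8 tested genes fell and 1 rose in each line (list medians -1.41 in resistant and -1.19 in parental cells), against 39.5% of all genes lower in resistant and 39.3% in parental cells. With library totals or mitochondrial mRNA all 8 fell, scalings under which most of all calls were lower: 22.5% and 8.94% of calls were higher in resistant cells and 30.6% and 11.4% in parental cells. CHUK, a catalytic kinase that acts on the NF-kB inhibitors, fell by 2.81 in resistant and 2.32 in parental cells, IKBKB, its partner, fell by 1.92 in resistant cells, and RELA, the transactivating subunit, fell by 1.04 in parental cells. With JQ1, 2 of the 8 fell and 1 rose in resistant cells and 3 fell and 1 rose in parental cells. Of all genes, 23.1% fell and 20.8% rose with JQ1 in resistant cells, and 26.1% fell and 22.8% rose in parental cells. With library totals, under which most of all JQ1 calls were lower, 5 of the list fell in resistant cells, and 4 fell and 1 rose in parental cells. The list medians with JQ1 were -0.11 and -0.11. Among 7 NF-kB inhibitors and feedback genes, 2 fell and 3 rose with dBET6 in resistant cells and 4 fell and 2 rose in parental cells. Of all genes, 39.5% fell and 35.7% rose in resistant cells, and 39.3% fell and 37.0% rose in parental cells. Library totals gave 6 lower and 1 higher in resistant cells, and 5 lower and 1 higher in parental cells. NFKBIZ, an inducible nuclear co-factor of NF-kB, rose by 3.25 ± 0.12 in resistant and 2.02 ± 0.11 in parental cells with dBET6, and by 1.30 and 0.95 with JQ1, and was above 0 in each under every scaling. TNFAIP3, the feedback enzyme that removes ubiquitin, fell by 0.87 in resistant and 1.63 in parental cells with JQ1.

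FOS, JUNB and ATF3, genes of the AP-1 family and its partners, rose with dBET6. FOS stood at 57.4 and 55.9 FPKM in resistant cells with dBET6 and 1.40 and 1.54 FPKM with DMSO, and at 29.7 and 30.7 FPKM in parental cells with dBET6 and 0.848 and 0.846 FPKM with DMSO. Its change was 4.88 ± 0.12 in resistant cells (adjusted p = 8.67e-23, edgeR) and 5.16 ± 0.13 in parental cells (adjusted p = 2.9e-22, edgeR). JUNB rose by 4.06 and 4.11 and ATF3 by 4.28 and 3.07 in resistant and parental cells. All 3 stayed above 0 with library totals and with mitochondrial mRNA, where JUNB changed by 1.99 and 2.33. FOSL2 fell by 2.43 in parental cells with dBET6. Of the 9 AP-1 and C/EBP genes, 5 rose and 3 fell in resistant cells and 6 rose and 3 fell in parental cells with dBET6, and with mitochondrial scaling 4 rose and 5 fell, and 4 rose and 4 fell. Of all genes, 35.7% rose and 39.5% fell with dBET6 in resistant cells and 37.0% rose and 39.3% fell in parental cells. With JQ1, 4 of the 9 rose and 2 fell in resistant cells, where 20.8% of all genes rose and 23.1% fell, and 7 rose and 1 fell in parental cells, where 22.8% rose and 26.1% fell. With mitochondrial scaling 2 rose and 4 fell, and 4 rose and 1 fell. With JQ1, FOS rose by 2.17 in resistant cells and ATF3 by 0.93 in resistant and 1.55 in parental cells, while IL8 fell. The part of these genes in the IL8 values was not tested.

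**Figure D5:**
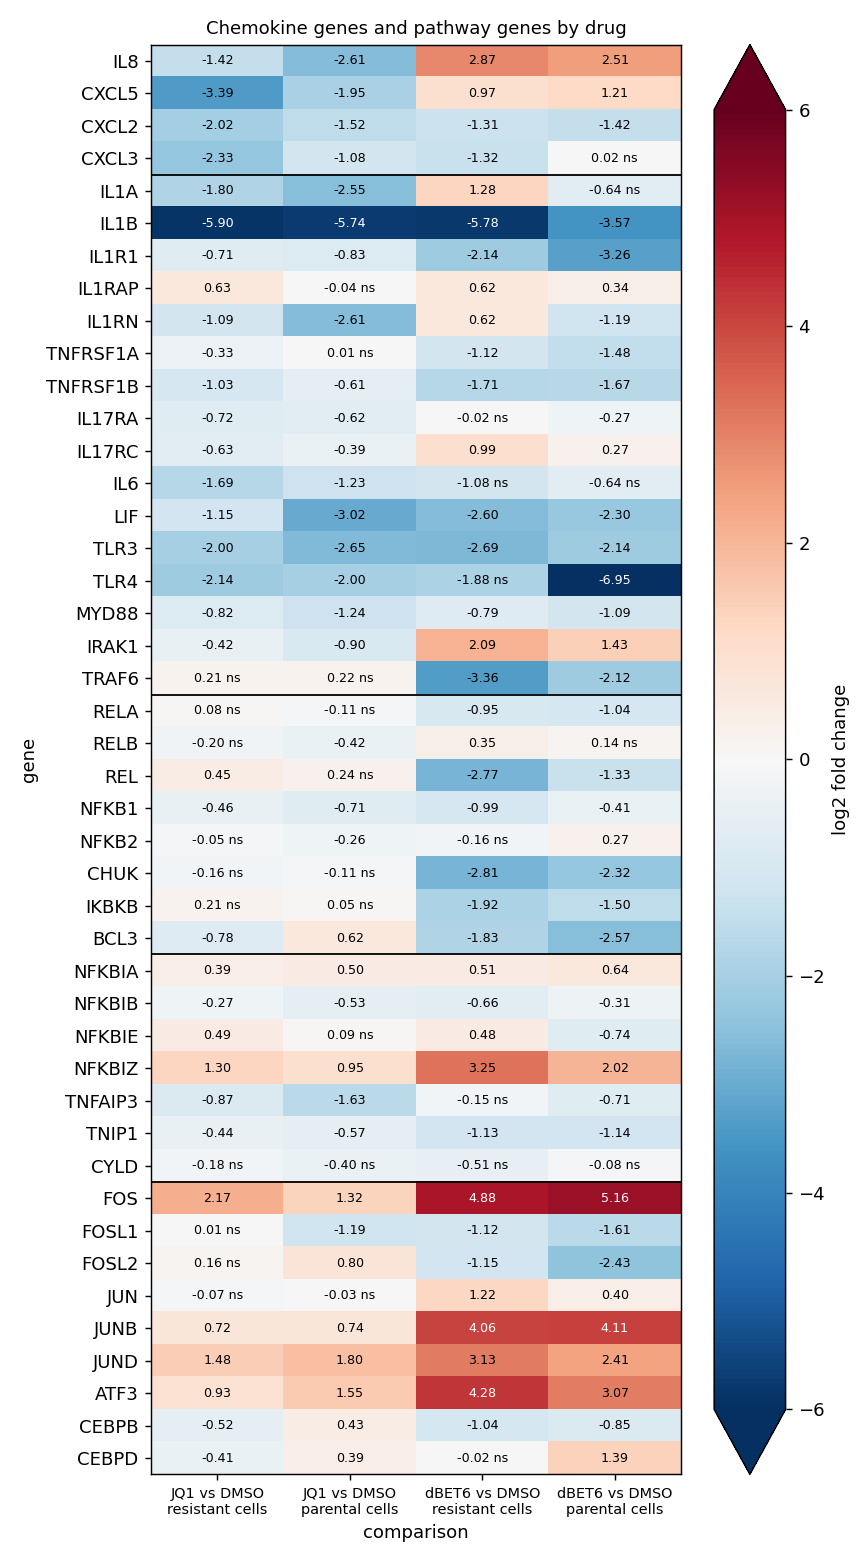
Log2 fold changes of the 4 tested members and of all tested genes of 4 lists (inducers and receptors, NF-kB subunits and kinases, NF-kB inhibitors, AP-1 and C/EBP partners) with each compound against DMSO; ns marks an adjusted p of 0.05 or more. With dBET6 IL8, FOS and JUNB are positive and IL1B is negative, and with JQ1 IL8 and IL1B are negative and FOS and JUNB positive.

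Other chemokines were mostly silent, and 5 of 17 listed were tested. CCL2, a monocyte attractant, fell by 3.47 in resistant and 2.59 in parental cells with JQ1, and by 2.25 and 4.16 with dBET6. CCL26, an eosinophil attractant, fell by 1.96 and 2.31 with JQ1. CXCL16 and CCL28 rose with dBET6, CXCL16 by 2.37 in resistant and 2.66 in parental cells and CCL28 by 5.22 and 4.68, and stayed above 0 under every scaling. The receptors of the cluster's ligands were nearly absent: CXCR1 reached 0.0891 FPKM and CXCR2 0.161 FPKM at most. SDC4, a surface proteoglycan that binds chemokines, rose by 2.56 in resistant and 2.68 in parental cells with dBET6. Among the chromosomal neighbours, EREG, which encodes the growth factor epiregulin, fell with both compounds in both lines. It fell by 2.39 and 2.43 with dBET6 and by 1.31 and 2.23 with JQ1 in resistant and parental cells. Of 5 tested neighbours among 9 listed, 3 rose and 2 fell in resistant cells with dBET6, and 2 rose and 2 fell in parental cells. Of all genes, 35.7% rose and 39.5% fell in resistant cells, and 37.0% rose and 39.3% fell in parental cells. With library totals, under which most of all calls were lower, 0 neighbours rose and 3 fell in resistant cells, and 1 rose and 3 fell in parental cells.

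Markers of the cells that usually respond to these chemokines were measured beside them. The summed FPKM of 9 myeloid and leukocyte markers was 833.9 to 850.2 in resistant cells with dBET6, 238.3 to 239.7 with JQ1 and 180.2 to 185.8 with DMSO. In parental cells it was 409.0 to 546.9 with dBET6, 242.1 to 258.6 with JQ1 and 214.1 to 239.9 with DMSO. Most of each sum was CD68, a lysosomal protein. These are deposited FPKM, whose sums over genes differ between libraries, so no fold is read from them. IL8, for comparison, stood at 12.7 FPKM and 5.52 TPM in resistant dBET6 replicate 1. In resistant DMSO replicate 1 it stood at 1.82 FPKM and 2.80 TPM. Of 5 tested markers, 3 rose and 0 fell with dBET6 in resistant cells, and 4 rose and 0 fell in parental cells. The list medians were 2.09 and 2.04. Of all genes, 35.7% rose and 39.5% fell in resistant cells, and 37.0% rose and 39.3% fell in parental cells. With mitochondrial scaling 2 markers rose and 1 fell, and 2 rose and 2 fell. The leukocyte marker PTPRC stayed at or under 0.238 FPKM, and FCGR3A was at 0 in 5 of the 6 groups.

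Across the 12 libraries the members did not run in parallel. On the log2 CPM scale, Pearson's r was 0.67 for CXCL2 with CXCL3 and for CXCL3 with CXCL5, 0.39 for IL8 with CXCL2, 0.36 for IL8 with CXCL5, 0.32 for IL8 with CXCL3 and 0.11 for CXCL2 with CXCL5. These points are libraries of 6 groups that share lines, treatments and scaling. Among 13542 genes with a mean of at least 1 CPM, the genes most like IL8 were CDKN2AIPNL (r = 0.988), KLHL38 (r = 0.986) and ST3GAL4 (r = 0.985). For CXCL5 they were MX2 (r = 0.980), TSGA10IP (r = 0.975) and LCP1 (r = 0.972). For CXCL2 they were CMTM3 (r = 0.966), ADAM19 (r = 0.957) and AIFM2 (r = 0.956), and for CXCL3 ADAMTS4 (r = 0.916), FAM65C (r = 0.902) and SAMD10 (r = 0.900).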

How the data were processed

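PolyA RNA of 12 libraries was measured. The estimated counts and TPM per transcript were deposited by the authors as kallisto output (per the file headers and tool notes), and 1 gene table holds the FPKM deposited for all libraries. The submitters' processing notes name kallisto, DESeq2 and hg19, without versions, and do not describe how FPKM were scaled. FPKM sums differ between libraries, so folds were not taken from them. Strandedness of the counting was not stated.

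Transcripts were paired with genes through GENCODE, and the paired ones held 94.67% to 96.16% of the counts. Counts were summed per gene and rounded. For the 6 members, TPM sums matched the deposited FPKM after a factor per library (ratio 1). After edgeR's filterByExpr, 19093 genes were tested by quasi-likelihood (edgeR 4.0.16, R 4.3.3, TMM scaling, 6 residual degrees of freedom with 1 mean per group). Benjamini-Hochberg adjustment was applied within each of 11 comparisons. The script was tested on simulated counts. limma 3.58.1, DESeq2 1.42.0, other scalings and filters, a replicate block and each library left out were alternatives. Libraries of a group are not stated to be separate cultures, so a p-value here measures the spread between these samples only, which may be technical. Intervals on count ratios and floors cover counting error only. All members are named, and from each list at most 4 genes per comparison, those with the smallest p, besides levels of receptors and markers. Members and lists were chosen with earlier results of these data known.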

Additional observations from a re-analysis of the deposited data

Results flagged for a closer look

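Responses that differed between the lines were found for 2 genes by a test of the difference itself. IL8 fell less with JQ1 in resistant than in parental cells, by 1.19 on the log2 scale, and CXCL3 had a more negative dBET6 response in resistant cells, by -1.34. For IL8 the mean of the 2 libraries was 0.626 FPKM with JQ1 and 1.56 FPKM with DMSO in resistant cells, and 3.63 FPKM with JQ1 and 21.2 FPKM with DMSO in parental cells. Both calls are lost when single libraries are left out. The IL8 call is also lost with library totals, mitochondrial mRNA and length-scaled counts. The CXCL3 call is also lost with length-scaled counts and in DESeq2. In resistant cells with JQ1, IL8 rested on 29 and 21 counts. The cause of either difference was not tested.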

How the results depend on the processing

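The calls of IL8 against DMSO with either compound, between compounds and between lines kept their direction and stayed past the threshold under every alternative run. Depth limits the others: CXCL5 had 3 to 6 counts per library with JQ1, and CXCL2 and CXCL3 had 10 to 14 counts in resistant cells with dBET6. The replicate numbers of the labels did not pair the libraries (deviations of same-numbered libraries correlated at -0.058 to 0.061), and a replicate block left the counts of members called unchanged, at 4 for JQ1 in either line. With a mean of at least 10 CPM, IL8 alone was left to test, so each comparison had 1 call at most, and 0 for the dBET6 response between lines. The cause of the changes below was not tested.

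The number of members called changed by over 1.5 times as follows. The JQ1 response between lines had 0 calls with library totals, mitochondrial mRNA, length-scaled counts, log2(TPM + 0.1) and log2(FPKM + 0.1). The dBET6 response between lines had 0 calls with length-scaled counts, paralogs merged, both FPKM scales and DESeq2. Resistant against parental cells in DMSO had 2 calls with length-scaled counts, paralogs merged, log2(FPKM + 0.1), log2(TPM + 1) and DESeq2, and 1 with log2(FPKM + 1) and log2(TPM + 0.1). In JQ1 the lines had 1 call with length-scaled counts and the FPKM and TPM scales, and in dBET6 4 with mitochondrial mRNA and 1 with log2(FPKM + 1) and the TPM scales. JQ1 in parental cells had 2 calls with log2(FPKM + 1) and 1 with log2(FPKM + 0.1), where dBET6 had 2 in resistant and 1 in parental cells. The compounds differed for 1 member in each line with the TPM scales. Smaller changes included those with library totals, which gave 3 calls for dBET6 in resistant cells, 2 in parental cells, 2 between compounds in each line and 3 between lines in dBET6, and those with mitochondrial mRNA, which gave 2 between compounds in resistant cells and 3 between lines in DMSO. The TPM scales and log2(FPKM + 1) had no test of CXCL5, whose mean was under 1. Single members kept direction and side of the threshold in 147 of 154 values for IL8, 100 of 108 for CXCL5, 102 of 131 for CXCL2 and 102 of 131 for CXCL3, apart from libraries left out.

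Signs turned for these log2 values. With library totals they were -0.62 for CXCL3 and dBET6 in parental cells, -0.10 for CXCL5 and dBET6 in resistant cells, -0.16 and -0.42 for CXCL2 between compounds in resistant and parental cells, and -0.080 for IL8 and -0.32 for CXCL2 in the dBET6 response between lines. With mitochondrial mRNA they were -1.75 for CXCL3 and -0.55 for CXCL5 with dBET6 in parental cells and -1.07 for CXCL5 in resistant cells. Between compounds they were then -0.77 and -1.32 for CXCL2 and -0.47 and -0.34 for CXCL3 in resistant and parental cells, and -0.18 for CXCL2 in the dBET6 response between lines. Without the filter, CXCL3 with dBET6 in parental cells was -0.13 and CXCL2 between compounds -0.038, and with length-scaled counts CXCL3 was -0.029 and the CXCL2 dBET6 response between lines -0.023. With log2(TPM + 1), CXCL3 with dBET6 in parental cells was -0.75, CXCL2 between compounds was -0.29 and -0.60 in resistant and parental cells, CXCL3 -0.085 in resistant cells, and the IL8 dBET6 response between lines -0.073. With log2(TPM + 0.1) the CXCL3 value was -1.22, CXCL2 -0.59 and -0.96, CXCL3 -0.20, and the CXCL2 dBET6 response between lines -0.27. With log2(FPKM + 0.1) the CXCL5 dBET6 response between lines was 0.072.

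With each library left out in turn, the members called ranged from 2 to 4 for JQ1 in parental cells, 0 to 1 for the JQ1 response and 0 to 2 for the dBET6 response between lines, and 1 to 2 between lines in JQ1. Values that crossed 0 were CXCL3 with dBET6 in parental cells (-0.32 to 0.31), CXCL2 between compounds in parental cells (-0.35 to 0.47), and the dBET6 responses between lines of CXCL2 (-0.22 to 0.53) and CXCL5 (-0.63 to 0.15). None of these had passed the threshold.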
